A study of Mus musculus with 2 samples.

Results

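Kupffer cell genes were followed in the livers of mice depleted of n-3 polyunsaturated fatty acids. The genes were Marco, Clec4f, Cd163, C1qa, C1qb, C1qc, Vsig4, Timd4, Adgre1 and Cd5l, and they were taken by symbol. All 10 had at least 1 probe set annotated to that gene alone, and together they had 13 of the 45101 probe sets of the array. Adgre1, also known as Emr1, encodes an adhesion-type surface receptor widely used to mark mouse macrophages.

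Male C57Bl/6J mice aged 9 weeks at the start ate a diet in which sunflower oil replaced soybean oil, in an experiment of 112 days. For the last 10 days, the DEF/FOS mice kept this diet while their water held fructooligosaccharides (FOS, a fibre that gut bacteria ferment), aimed at an intake of 0.25 g per day. The DEF/CT mice ate the soybean oil control diet for those 10 days. The depleted diet had 127.2 times as much n-6 as n-3 fatty acid, and the control diet 6.9 times. Liver RNA of the mice in a group, 8 per the treatment protocol, was pooled and each pool was put on 1 Affymetrix array. The groups therefore differed in both the fibre and the oil, and the effects of these cannot be told apart. The spread between animals and between arrays was not measured, so no comparison below has a test or a p-value. Mice that kept either diet to the end are not analysed here.

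Kupffer cells are the resident macrophages of the liver and line the sinusoids, where they meet blood coming from the gut. They bind bacteria, complement-coated particles, dying cells and damaged red cells through surface receptors, and they secrete the C1q proteins that start the classical complement pathway. Clec4f, Timd4, Vsig4, Marco and Cd5l serve as Kupffer cell markers in mouse liver, while C1q genes, Adgre1 and Cd163 are shared with macrophages of other tissues. In RNA of whole liver, fewer cells of a type and less RNA per cell cannot be told apart.

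The promoters of the gene with the largest difference, of Cd5l and of a pair of neighbouring C1q genes show short sequences read by macrophage factors. They are printed for comparison with the signals, as the 250 bases before the annotated start, 5′ to 3′ on the gene's strand, from RefSeq on GRCm38.p6. Of the 10 genes, 8 matched this promoter table, and C1qa and Adgre1 did not. Capitals mark GAGGAA, the core bound by the macrophage factor PU.1 (encoded by Spi1), and TGCTGA, a half-site of the MAF factors, on either strand.
Marco, chr1:120505025-120505274, minus strand: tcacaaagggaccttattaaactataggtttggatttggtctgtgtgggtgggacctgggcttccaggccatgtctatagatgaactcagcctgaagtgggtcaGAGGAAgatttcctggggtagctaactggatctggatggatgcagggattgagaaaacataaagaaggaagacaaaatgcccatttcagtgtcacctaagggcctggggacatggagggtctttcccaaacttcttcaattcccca
Cd5l, chr3:87357631-87357880, plus strand: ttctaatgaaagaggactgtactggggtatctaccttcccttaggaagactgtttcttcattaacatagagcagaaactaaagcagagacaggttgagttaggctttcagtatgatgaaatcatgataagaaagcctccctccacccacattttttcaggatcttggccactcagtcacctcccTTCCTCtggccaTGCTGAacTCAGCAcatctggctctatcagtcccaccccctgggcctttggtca
C1qb, chr4:136886201-136886450, minus strand: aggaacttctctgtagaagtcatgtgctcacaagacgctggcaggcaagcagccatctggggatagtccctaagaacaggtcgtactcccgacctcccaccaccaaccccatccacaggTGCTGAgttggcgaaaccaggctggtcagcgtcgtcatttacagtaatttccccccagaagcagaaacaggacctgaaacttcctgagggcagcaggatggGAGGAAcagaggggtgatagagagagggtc
C1qc, chr4:136892915-136893164, minus strand: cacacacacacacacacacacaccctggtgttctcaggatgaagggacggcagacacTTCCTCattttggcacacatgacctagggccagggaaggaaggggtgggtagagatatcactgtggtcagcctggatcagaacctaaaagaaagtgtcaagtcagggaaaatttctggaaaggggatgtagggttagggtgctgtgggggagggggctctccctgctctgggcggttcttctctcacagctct

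The GAGGAA core lay in 5 of the 8 promoters, those of Marco, C1qb, C1qc, Vsig4 and Cd5l, and in 23.3% of all 32851 promoter entries of the same length. TGCTGA lay in 4 of the 8, those of Clec4f, C1qb, Timd4 and Cd5l, against 16.1% of all entries. In Cd5l the half-site began 54 bases before the start and its reverse complement TCAGCA began 46 bases before it, so that they face each other across a short spacer. A composite read by PU.1 with an IRF factor, GGAA followed after 2 bases by GAAA on either strand, can overlap a GAGGAA core. It lay in the promoter of Timd4, 72 bases before the start, and in 2.30% of all entries. Cd163 held none of these letters in this window. The motifs were chosen after the promoters had been seen, and a match is a description, not a bound site.

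Signals are the authors' MAS5 intensities, not log-transformed. Differences are log2 of the DEF/FOS signal minus log2 of the DEF/CT signal, centred on their median over probe sets above a signal floor of 19.4. Each gene is represented by its brightest probe set. Folds include this centring, and a ratio taken from 2 printed signals is therefore slightly off. In place of a replicate error, the SD of the differences among a gene's probe sets is given for 4 bands of signal, the quartiles of gene signal. It was 0.54 on the log2 scale in the lowest band, 0.41 in the second, 0.29 in the third and 0.21 in the highest. This SD leaves out animals and arrays. The share of all genes whose difference passes it was not counted, so a multiple of it is a description of size only. All 13 probe sets lay above the floor in their mean over both pools.

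Kupffer cell genes had slightly higher signals in DEF/FOS liver, and the scavenger receptor gene Marco stood well above the rest. Of the 10 genes, 8 had a difference above 0, where 49.9% of all 11163 genes above the floor did. The median of the 10 was 0.24 on the log2 scale and that of all genes was 0.00. The difference of 7 of the 10 lay above 0.222, the upper quartile of all genes, with Cd5l only just above it at 0.223. Only Marco was at least 1.5-fold higher, 1 of 10 against 6.75% of all genes, and 0 of 10 were at least 1.5-fold lower against 7.82%. A share of 1 in 10 is near the background and says nothing particular of these genes. Without Marco the median was 0.23.

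**Figure D1:**
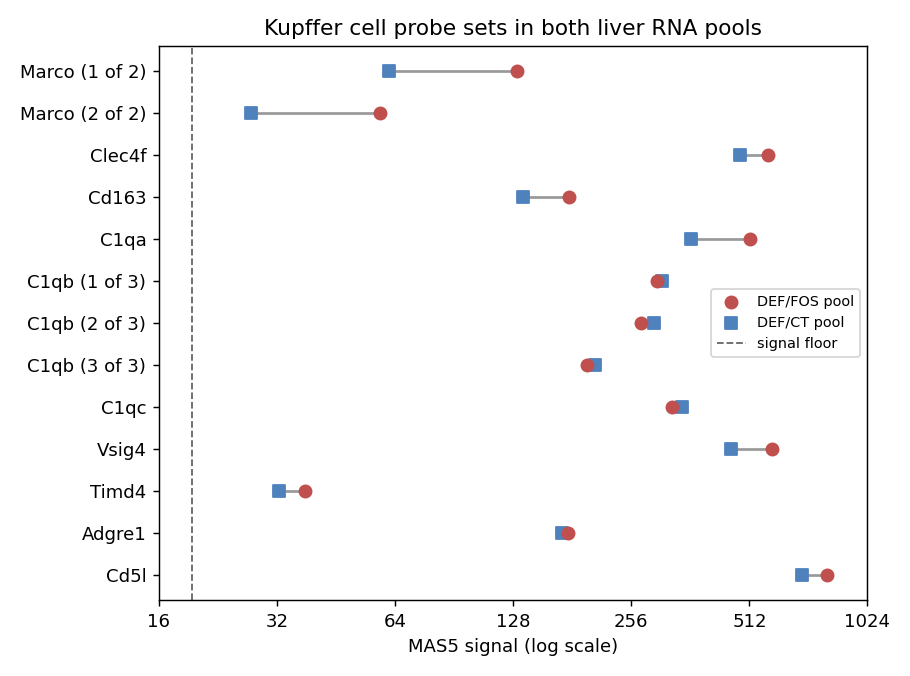
MAS5 signal (log scale) of each of the 13 Kupffer cell probe sets in DEF/FOS liver (circles) and the DEF/CT pool (squares), 1 array each, with the signal floor as a dashed line. Both Marco probe sets are far apart between the pools, while the symbols of all 3 C1qb probe sets, C1qc and Adgre1 nearly coincide.

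Among the receptors for particles, bacteria and haemoglobin, Marco differed most. Marco, a collagen-like scavenger receptor that binds bacteria and modified lipoproteins, had a signal of 130.6 in DEF/FOS liver and 61.6 in DEF/CT liver. Its difference was 1.10, a 2.14-fold higher signal, and 2.70 times the SD between probe sets at that signal. The other Marco probe set had signals of 58.7 and 27.5 and a difference of 1.11, so both probe sets gave the same size. Marco ranked 152 from the top of 11163 genes, and 1.35% of genes had a larger positive difference. Marco was the 1 gene of the 10 at least 2-fold higher, against 1.74% of all genes, and 0 were at least 2-fold lower, against 2.19%.

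Cd163, the receptor that takes up haemoglobin bound to haptoglobin, had signals of 177.6 and 135.6 in DEF/FOS and DEF/CT liver, respectively. DEF/FOS liver was 1.32-fold higher, a difference of 0.40 against an SD between probe sets of 0.29. Vsig4, the complement receptor of the immunoglobulin family that clears particles coated with C3 fragments, had signals of 585.8 and 459.2. This was 1.29-fold higher in DEF/FOS liver, a difference of 0.37 against an SD of 0.21. Both genes were thus higher by more than 1 SD and below 1.5-fold.

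Clec4f, a C-type lectin that in the mouse is largely restricted to Kupffer cells, had signals of 570.2 in DEF/FOS liver and 483.7 in DEF/CT liver. Its difference of 0.25 was a 1.19-fold higher signal and 1.18 times the SD. Timd4, the phosphatidylserine receptor of long-lived resident Kupffer cells, had signals of 37.6 and 32.3, in the band where probe sets agree least. Its difference of 0.23 was well inside the SD of 0.54. Adgre1 had signals of 176.3 and 170.4, a difference of 0.06. Clec4f and Timd4 thus lay close to the median of the group, the latter at low signal.

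Secreted proteins divided. Cd5l, a scavenger-receptor-like protein that macrophages release into plasma, had signals of 808.1 and 699.5 in DEF/FOS and DEF/CT liver, respectively, a difference of 0.22. The SD at that signal was 0.21. C1qa, the A chain of C1q, had signals of 515.0 and 363.0 and was 1.43-fold higher in DEF/FOS liver. Its difference of 0.52 was 2.43 times the SD.

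The other two chains had differences near 0. C1qb, the B chain, had signals of 298.1 and 307.4 by its brightest probe set, a difference of -0.03. The other C1qb probe sets had differences of -0.09, at signals of 271.7 and 292.3, and of -0.05, at 197.4 and 207.2. C1qc, the C chain, had signals of 325.6 and 344.8 and a difference of -0.07. The 3 chains join in equal numbers in the C1q protein, and their genes follow each other on chromosome 4 in the order C1qb, C1qc, C1qa. The difference of C1qa exceeded that of C1qb by 0.55 and that of C1qc by 0.59 on the log2 scale. C1qa rests on 1 probe set, while 3 probe sets of C1qb gave the same sign, and no second array exists to show how far such a gap varies. The median of the 3 C1q genes was -0.03 and that of the other 7 was 0.25.

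**Figure D2:**
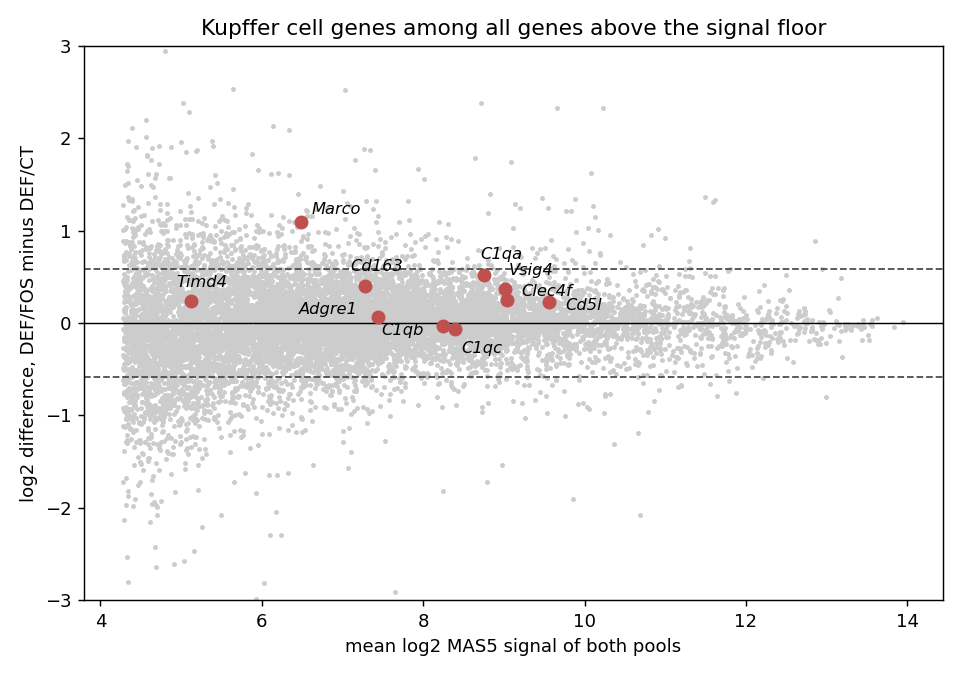
Log2 difference (DEF/FOS minus DEF/CT) against mean log2 MAS5 signal of both pools for 11163 genes above the floor (grey, 13 genes beyond the axis not drawn), with the 10 Kupffer cell genes in colour and dashed lines at 1.5-fold. Marco lies above the upper line, C1qa just under it, and C1qb and C1qc just below 0.

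A list of other genes known to be enriched in Kupffer cells, and of factors that set their identity, also had a positive median. Of 14 such genes above the floor, 10 had a positive difference and the median was 0.29. With only probe sets specific to 1 transcript by their ID it was 0.15, where that of the Kupffer cell genes was 0.25. Past 1.5-fold lay 2 of them, both with the higher signal in DEF/FOS liver. Id1, an inhibitor of helix-loop-helix factors that many liver cells express, had signals of 249.0 and 136.5 in DEF/FOS and DEF/CT liver, respectively, a 1.84-fold higher signal. Clec4n, the lectin Dectin-2, had 54.6 and 35.6, a difference of 0.63 by its brightest probe set and 0.27 by the other. The iron exporter Slc40a1 had signals of 1713 and 1560, a difference of 0.15. Hpgd, which breaks down prostaglandins, had 1122 and 882, a difference of 0.36 by its brightest probe set and 0.13 by the other. By brightest probe set, 4 genes of the list had negative differences, so the identity factors did not all go 1 way. They were Il18bp, at -0.54, and the factors Nr1h3, at -0.38, Zeb2, at -0.33, and Irf8, at -0.13. The 4 probe sets of Zeb2 ran from -0.33 to 0.69.

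Genes listed as common to macrophages were also higher at the median. Of 18 above the floor, 13 had a positive difference, 1 lay past 1.5-fold and the median was 0.23. Lgmn, a lysosomal protease, was 1.66-fold higher at 285.0 against 173.6. The lysozyme gene Lyz1 had 1293 and 890, a difference of 0.55 by its brightest probe set and 1.35 by the other. Its close relative Lyz2 may share probes with it. Csf1r, the receptor for the growth factor that keeps macrophages alive, had 1039 and 915, a difference of 0.20. Its 3 probe sets ran from -0.08 to 0.27. The Fc receptor gene Fcgr1 differed by 0.56 by its brightest probe set and by -0.73 by the other. By brightest probe set, 5 of the 18 had negative differences. They were Aif1, at -0.23, Mpeg1, at -0.10, Cd74, at -0.07, Cybb, at -0.06, and Cd68, at -0.04.

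Scavenger and phagocytic receptors other than Marco, listed with the ligand genes Gas6 and Pros1, had a median of 0.11 over 13 genes, with 9 above 0. Cd36, a fatty acid and lipoprotein receptor that hepatocytes also express, was 1.97-fold higher in DEF/FOS liver at 242.1 against 123.9, and its 3 probe sets ran from 0.66 to 0.98. The integrin gene Itgb2 had a difference of 0.55. Scarb1, the receptor for high-density lipoprotein, had 0.06 and the endocytic receptor Lrp1 -0.04. By brightest probe set, Marco's difference was above that of each of these 13 genes. A dimmer probe set of the scavenger receptor Msr1, named after its value was seen, had 1.51, while its brightest had 0.20.

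Other complement genes, most of them made by hepatocytes, had mostly negative differences. Of 10 genes above the floor, 2 had a positive difference and the median was -0.20. By brightest probe set, the positive ones were Mbl2 and C3ar1, a receptor of myeloid cells for a C3 fragment. C3ar1 had 0.12 by that probe set and -0.17 by the other. Masp1, a protease of the lectin pathway, was 1.59-fold lower in DEF/FOS liver by its brightest probe set, with probe sets from -0.67 to 0.17. C2, the protease that forms part of the C3 convertase, had a difference of -0.41. C1ra and C1s1, the proteases carried by C1q and taken here outside the naming rule, had differences of -0.33 and -0.28. The inhibitor of these proteases, Serping1, had -0.17 and the lectin gene Mbl2 had 0.24.

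Genes listed for haemoglobin and haem clearance had a median of 0.12 over 8 genes, with 6 above 0. Of these 8, 2 were at least 1.5-fold higher, against 6.75% of all genes. Blvrb, a biliverdin reductase, was 1.82-fold higher in DEF/FOS liver at 1360 against 753. The other biliverdin reductase gene of the list, Blvra, had 176.1 and 193.2, a difference of -0.12. The haem transporter Slc48a1 was 1.63-fold higher, with differences of 0.71 and 0.74 in its probe sets. The haem carrier Hpx differed by -0.02 and ferritin heavy chain, Fth1, by 0.04.

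Many activation genes were not measurable above the floor. Of 14 inflammatory genes 7 lay below it, Tnf, Il6, Nos2 and Ccl2 among them. The 7 others had a median of 0.32, with Il1b at 95.9 and 77.9, a difference of 0.32. The chemokine gene Cxcl10 was 1.85-fold higher at 57.6 against 31.4. The receptor for bacterial lipoproteins, Tlr2, differed by 0.01 and the inflammasome gene Nlrp3 by 0.49. Of 10 alternative activation genes, the 5 above the floor all had negative differences, with a median of -0.12. Arg1, which hepatocytes express for the urea cycle, differed by -0.11. Socs3, a feedback inhibitor of cytokine signalling, differed by -0.34, and the interleukin-1 antagonist Il1rn by -0.58 with probe sets that disagreed in sign.

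Growth factors and signals for macrophages had a median of 0.39 over 7 genes above the floor, or 0.13 with the median over probe sets, 0.24 with an offset of 32 and 0.59 with no floor, while Il34, Csf2 and Csf3 lay below it. Csf2ra, a chain of the receptor for the growth factor Csf2, was 1.56-fold higher in DEF/FOS liver. Bmp2, a signal of liver endothelium, had a difference of 0.13. The receptor gene Notch1 had 0.44 by its brightest probe set and -0.02 by the other. Dll4, a Notch ligand, lay below the floor in DEF/FOS liver and was there at least 2.64-fold lower, at 16.6 against 51.8.

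Markers of recruited monocytes and of lipid-associated macrophages had medians near 0 where they could be measured. Of 10 monocyte genes with a probe set 4 lay above it, with a median of 0.04. Plac8 had a difference of 0.24, Ifitm3 -0.16, Ms4a6c 0.42 and the chemokine receptor Ccr2 -0.58, at 19.3 and 29.3. Of 7 lipid-associated genes with a probe set 4 lay above the floor, with a median of 0.02, while Trem2, Gpnmb and Itgax lay below it. Cd9 had a difference of 0.44. Fabp5 had -0.37 by its brightest probe set and -0.66 by the other. Lpl had -0.20 by its brightest probe set and 0.17 by the other. Ifitm3 had signals of 5157 and 5806 in DEF/FOS and DEF/CT liver, respectively, and Fabp5 had 3921 and 5136. Both were brighter than every Kupffer cell gene, and which liver cells gave these signals was not tested.

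**Figure D3:**
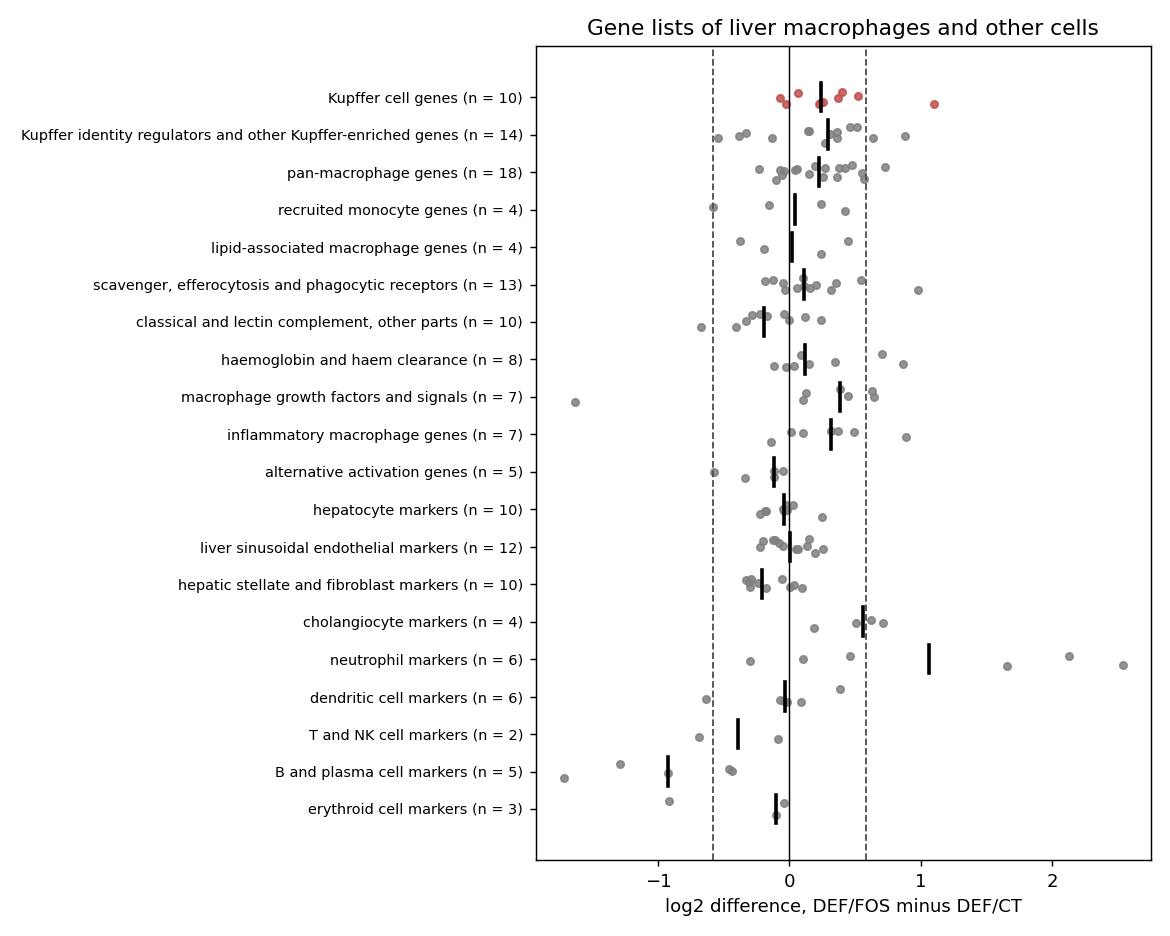
Log2 difference (DEF/FOS minus DEF/CT) of every gene above the floor in each list (points, by brightest probe set), the list median (black bar) and dashed lines at 1.5-fold, with skeletal muscle markers left out for scale. The Kupffer, Kupffer-enriched and pan-macrophage lists have medians from 0.23 to 0.29, endothelial and hepatocyte lists lie near 0, S100a8, S100a9 and Lcn2 lie far to the right of the other 3 neutrophil markers, and all 5 B and plasma cell markers lie left of 0.

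Other cells of the liver sinusoid did not show the same shift. Endothelial markers had a median of 0.00 over 12 genes, with Clec4g at 903.0 and 872.5 and Fcgr2b at 490.0 and 539.3. The 4 probe sets of Fcgr2b ran from -0.12 to 0.40. By brightest probe set, the largest differences among endothelial markers were those of Pecam1, 0.25, and Kdr, -0.22. Stellate cell and fibroblast markers had a median of -0.21 over 10 genes, with Lrat, the retinol-storing enzyme, at -0.33 and Hand2 at -0.31. Dcn had 0.03, and Colec11 had -0.24 by its brightest probe set and 0.10 by the other. Hepatocyte markers had a median of -0.04 over 10 genes, from Cps1 at -0.22 to Hnf4a at 0.25. Apoa1 and Ttr, the brightest of them, had -0.04 and 0.03. The differences between these medians and that of the Kupffer cell genes have no test.

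Some genes listed as markers of other blood cells differed between the pools. Past 1.5-fold in the direction of DEF/FOS liver were 3 of the 6 neutrophil markers above the floor, namely S100a8, at 146.6 against 33.8, S100a9, at 109.6 against 35.1, and Lcn2, at 119.6 against 20.9. The other 3 did not pass it, with differences of 0.46 for Csf3r, 0.10 for Ngp and -0.30 for Elane, so the list was not uniform. Its median was 1.06, but 0.34 with no floor, 0.65 with the offset and 0.28 with specific probe sets only. The list had a summed signal of 495 over 10 genes in DEF/FOS liver and 207 in DEF/CT liver, while the granule genes Mpo, Ltf and Camp lay below the floor. Which liver cells held the RNA of S100a8, S100a9 and Lcn2 was not tested, so their signals do not count neutrophils. Of 5 B and plasma cell markers above the floor, 0 had a positive difference. Ighm was 3.29-fold lower in DEF/FOS liver by its brightest probe set, with probe sets from -1.72 to 0.23, and the summed signal over 6 genes was 392 against 1062. Jchain was 1.90-fold lower and Ms4a1, below the floor in DEF/FOS liver, at least 1.87-fold lower.

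The remaining lists were thinly covered. Dendritic cell markers had a median of -0.03 over 6 genes. H2-Aa had -0.04 by its brightest probe set, with probe sets from -0.995 to -0.04. H2-Eb1 had -0.07 and Siglech, in DEF/CT liver below the floor, was at least 1.22-fold higher. Cd209a, below the floor in DEF/FOS liver, was at least 1.38-fold lower. The T and NK cell list had Cd8a, with a difference of -0.69, and Nkg7, with -0.09, above the floor. Erythroid markers had 3 genes above it, with the haem synthesis enzyme Alas2 1.88-fold lower in DEF/FOS liver, Hbb-b2 at -0.04 and Klf1 at -0.10. Of 4 cholangiocyte genes all had positive differences at signals of 17.2 to 41.3, among them Epcam at 0.19, Sox9 at 0.51 and Tspan8 at 0.71 with probe sets that disagreed in sign. Krt19, which DEF/CT liver had below the floor, was at least 1.36-fold higher.

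Skeletal muscle RNA was present in DEF/CT liver. All 12 muscle markers were at least 1.5-fold lower in DEF/FOS liver, and their summed signal was 164 there and 2839 in DEF/CT liver. Acta1 was at least 34.5-fold, Tnnc2 at least 23.7-fold, Myl1 at least 10.6-fold and Mylpf 4.92-fold lower. The macrophages of muscle express Cd163, C1q genes and Adgre1 too, and the part of the muscle RNA in the values of these genes was not tested. The 8 Kupffer cell genes with a positive difference, Cd163, C1qa and Adgre1 among them, were higher in the pool with the lower muscle signal, and C1qb and C1qc were not. The ratio of 3-prime to 5-prime actin probe sets differed little, at 1.97 in DEF/FOS liver and 2.16 in DEF/CT liver. The median signal of all probe sets was 19.6 and 22.0, respectively. In the lowest band of signal the median difference was -0.11, against 0.02 in the highest. In that lowest band 19.8% of genes were at least 1.5-fold lower in DEF/FOS liver and 12.2% at least 1.5-fold higher. Negative differences at low signal are therefore common.

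The direction of 9 of the 10 Kupffer cell genes was the same under every processing setting tried. Marco ran from 0.81, with an offset before the log, to 1.15, with no floor, and remained above 1.5-fold in each of the 8 alternatives. C1qa ran from 0.48 to 0.58, below 1.5-fold in each of them. C1qb was the exception in sign, from -0.06 to 0.03. Timd4, at low signal, ran from 0.13 to 0.31.

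**Figure D4:**
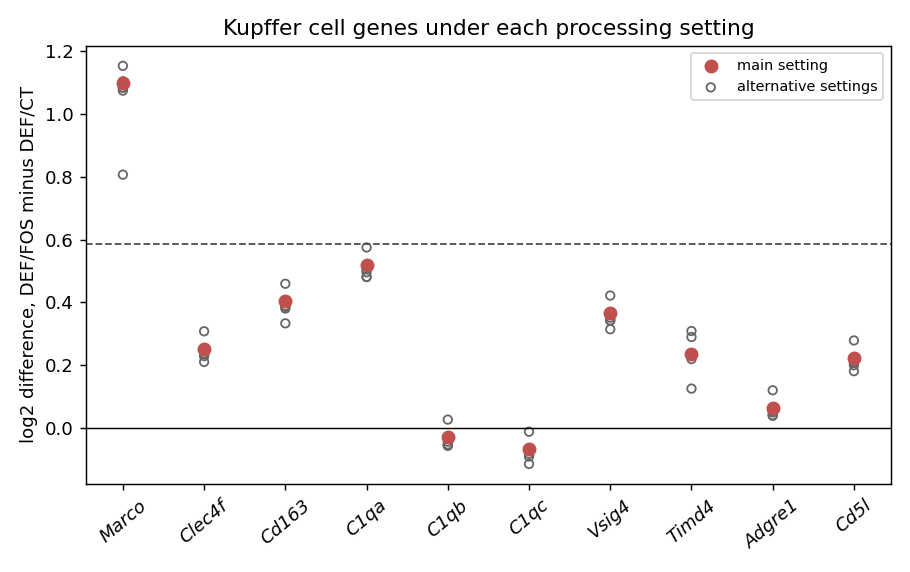
Log2 difference (DEF/FOS minus DEF/CT) of each Kupffer cell gene in the main setting (filled) and under each alternative that could measure it (open circles), with the dashed line at 1.5-fold higher. Marco stays above the line and C1qa below it, and C1qb has both signs.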

How the data were processed

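Liver RNA pools of 2 groups were measured on 1 Affymetrix array each. The deposited intensity values are MAS5 signals on a linear scale, and GCOS and MAS5 are named without a version in the submitters' processing notes. The mean of the authors' values, trimmed by 2% at each end, was 100.0 in both arrays. The files hold no detection calls, and with 1 array per group precision cannot be measured.

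Symbols came from the platform annotation, which can be old, for 34958 probe sets with 1 symbol. Another 932 had several and 9160, not controls, had none here. A RefSeq table of GRCm38.p6 matched 34754 by Entrez identifier and updated 0 symbols. With Python 3.11.15 and pandas 2.3.3, log2 differences were centred on their median, -0.01, over probe sets above the floor. The floor was the median, over all probe sets but the controls, of the mean log2 signal of both arrays. A pool below it was set to the floor for the fold, which is then a bound. Bands are quartiles of gene signal, and the SD over 4885 genes with several probe sets was 0.38. The difference step was run on simulated arrays with known folds. This checks the arithmetic only and says nothing of the precision of the differences above.

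The genes and lists were chosen with earlier results of these data known. The naming rule took all 10 Kupffer cell genes and, from each of 20 other lists, the 2 brightest genes and the 2 with the largest absolute difference. Others named were chosen after their values were seen. Alternatives covered the floor, an offset of 32, scaling and the probe set rule.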

Additional observations from a re-analysis of the deposited data

How the results depend on the processing

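Across 8 alternatives (a floor at the 75th percentile of signal, no floor, signals below the floor set to it, an offset of 32, no centring, quantile normalization, the median over probe sets, and only probe sets specific to 1 transcript by their ID), the number of Kupffer cell genes at least 1.5-fold higher was 1 and at least 1.5-fold lower 0. Their median ran from 0.22 to 0.30. The higher floor measured 9 of the 10 genes and lacked Timd4. The rule on specific probe sets lacked Adgre1. Without a floor, 15.7% of all genes were at least 1.5-fold higher. The neutrophil median was 1.06 in the main setting and 0.28 with specific probe sets only, and the median of B and plasma cell markers ran from -1.74 to -0.46. No paired analysis was possible because each group has 1 array. Pooling leaves the spread between mice unmeasured, and low signals such as those of Timd4 limit what can be read.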
